A study of Schizosaccharomyces pombe with 4 samples.

Results

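The comparison described here sets H3K9me3 in wild-type fission yeast (Schizosaccharomyces pombe) 14 generations after tetR-clr4 was switched OFF against H3K9me3 in the same genotype with tetR-clr4 ON. It rests on 2 of the series' 4 arrays, chosen by their titles, and on all 41551 genomic tiles of each. ON cells (wt ON) were grown for 20 generations in minimal medium lacking thiamine and then for 5 generations with 5-fluoroorotic acid at 850 µg/ml. OFF cells (wt OFF) came from the same culture, grown on for 14 generations with thiamine at 5 µg/ml and tetracycline at 2.5 µg/ml. Both groups carry tetR-clr4. Both grew at 32 °C and were fixed in 3% paraformaldehyde. Which promoter drives tetR-clr4, and where its binding sites lie, is not given in the labels. OFF cells were fixed later than ON cells, the medium gained thiamine and tetracycline, and 5-fluoroorotic acid is not named for the last 14 generations. These differences cannot be told apart from the switch. The other pair of arrays, clr3-CDx2 ON and clr3-CDx2 OFF, is used only for values side by side.

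Methylation of histone H3 on lysine 9 marks heterochromatin, and in fission yeast Clr4 is the enzyme that writes it. The mark lies in wild-type cells at the repeats around centromeres, at the silent mating-type genes and near telomeres, where Swi6 and other chromodomain proteins bind it. Clr4 binds the mark as well as writing it, so a methylated stretch can spread to its neighbours and be copied after replication. TetR, the bacterial Tet repressor, binds its operator sequence and lets go in the presence of tetracycline, so a TetR-Clr4 fusion can place Clr4 at a chosen site and release it again. Clr3 is a histone deacetylase of silent chromatin. Thiamine represses a small set of fission yeast genes for thiamine synthesis and uptake, of which nmt1 is the one most used in expression vectors. 5-fluoroorotic acid kills cells that express ura4 and so selects for cells in which it is silent.

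Each value is a log2 ratio of precipitated (ChIP) over input signal with the median tile of its array at 0, and a difference is wt OFF minus wt ON on that scale. With a single array in each group there is no replicate spread to judge a difference by, so no p-value was computed and all differences describe these arrays only. Over all tiles the difference had a median of 0.04, its 5th and 95th percentiles lay at -0.32 and 0.62, and single tiles ran from -5.05 to 3.06. A change of 1 or more, a doubling or more of the ratio, was counted: 349 tiles (0.84%) were lower and 501 (1.21%) higher. On chromosome arms outside the ectopic domain defined below, the difference had a robust SD of 0.19 over 40025 tiles. As a check of the labels, clr3 read 0.55 and 0.65 on the wt ON and wt OFF arrays and -1.39 and -1.32 on the clr3-CDx2 arrays. The clr4 gene itself read 1.04 in wt ON and 1.15 in wt OFF.

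The bases just upstream of 5 genes are shown because the comparison turns on them. The first are ura4, in the domain that lost the mark, and ade6, annotated outside it, whose tiles lost the mark too. The others are nmt1, thi2 and bsu1, the thiamine-list genes with the largest rises. Each line gives the 200 bases before the annotated start of the gene, read 5′ to 3′ on its own strand from RefSeq assembly ASM294v3. They are chrIII:116626-116825 (minus strand), chrIII:1316081-1316280 (plus), chrIII:1838215-1838414 (plus), chrII:3940326-3940525 (plus) and chrI:3549834-3550033 (plus), and none overlaps another protein-coding gene. Capitals mark the TATA-box letters TATAAA on either strand; in ura4 a match on each strand overlaps the other.
ura4: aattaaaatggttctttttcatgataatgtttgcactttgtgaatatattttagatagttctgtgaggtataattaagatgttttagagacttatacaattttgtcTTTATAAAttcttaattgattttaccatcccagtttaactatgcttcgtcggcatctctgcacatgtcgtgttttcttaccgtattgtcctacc
ade6: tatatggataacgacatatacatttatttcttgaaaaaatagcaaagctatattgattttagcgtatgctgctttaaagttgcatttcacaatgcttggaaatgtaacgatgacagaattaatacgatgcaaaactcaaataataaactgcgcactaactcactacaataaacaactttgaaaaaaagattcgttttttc
nmt1: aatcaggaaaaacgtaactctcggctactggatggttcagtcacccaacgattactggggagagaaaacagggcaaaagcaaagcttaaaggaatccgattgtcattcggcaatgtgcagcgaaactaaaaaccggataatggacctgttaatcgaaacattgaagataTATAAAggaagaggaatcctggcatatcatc
thi2: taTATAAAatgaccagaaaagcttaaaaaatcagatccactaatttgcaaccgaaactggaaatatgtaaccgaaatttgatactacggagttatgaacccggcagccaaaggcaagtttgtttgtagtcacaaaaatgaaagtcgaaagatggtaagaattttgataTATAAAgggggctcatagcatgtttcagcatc
bsu1: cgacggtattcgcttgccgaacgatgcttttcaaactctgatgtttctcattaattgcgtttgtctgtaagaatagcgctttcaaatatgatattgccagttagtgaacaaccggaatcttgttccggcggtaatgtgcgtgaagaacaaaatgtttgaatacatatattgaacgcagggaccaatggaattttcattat
In nmt1 the motif begins 31 bases before the start, and in thi2 the nearer of 2 matches begins 32 bases before it. In both genes these letters end a longer run, ATATATAAA. No match was found in the windows of ade6 and bsu1. Of the 5112 protein-coding genes with such a window, 1890 (37.0%) hold TATAAA on either strand and 113 (2.21%) hold ATATATAAA.

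The change of largest extent was the loss of an H3K9me3 domain around ura4, near the left end of chromosome III. In wt ON it spanned 48.6 kb, 162 tiles at array positions 98700 to 147000, and its median difference was -2.29. Its core, the 27.3 kb enriched on both ON arrays (99300 to 126300, 91 tiles), went from a median of 3.24 in wt ON to 0.14 in wt OFF. The median difference over tiles was -3.28, a ratio 9.71 times lower in OFF, and 98.9% of core tiles were lower. The right flank, the tiles by which the wt ON run extends the core (126600 to 147000, 69 tiles), went from 1.78 to -0.09, a median difference of -1.99, and each of its tiles was lower. Separate enriched runs lay in this flank on clr3-CDx2 ON as well, at 131400 to 136200 and 138300 to 143700. Because enrichment in ON picked these tiles, lower values in OFF are favoured by the choice. The longest run enriched on clr3-CDx2 ON alone, found without either wild-type array, is the same interval as the core. In wt OFF 12 tiles of the domain in 2 short runs passed the enrichment rule, 103500 to 104700 in rhp16 and 132000 to 133800 in btb1. Over all chromosome arms 4039 of 40187 tiles lay in such runs in wt OFF, 404 runs in all. No retention of the mark is therefore read from these 2 runs. In clr3-CDx2 the core read 2.68 in ON and 3.09 in OFF, with a median difference of 0.93. With 1 array each, that contrast between genotypes was not tested.

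**Figure D1:**
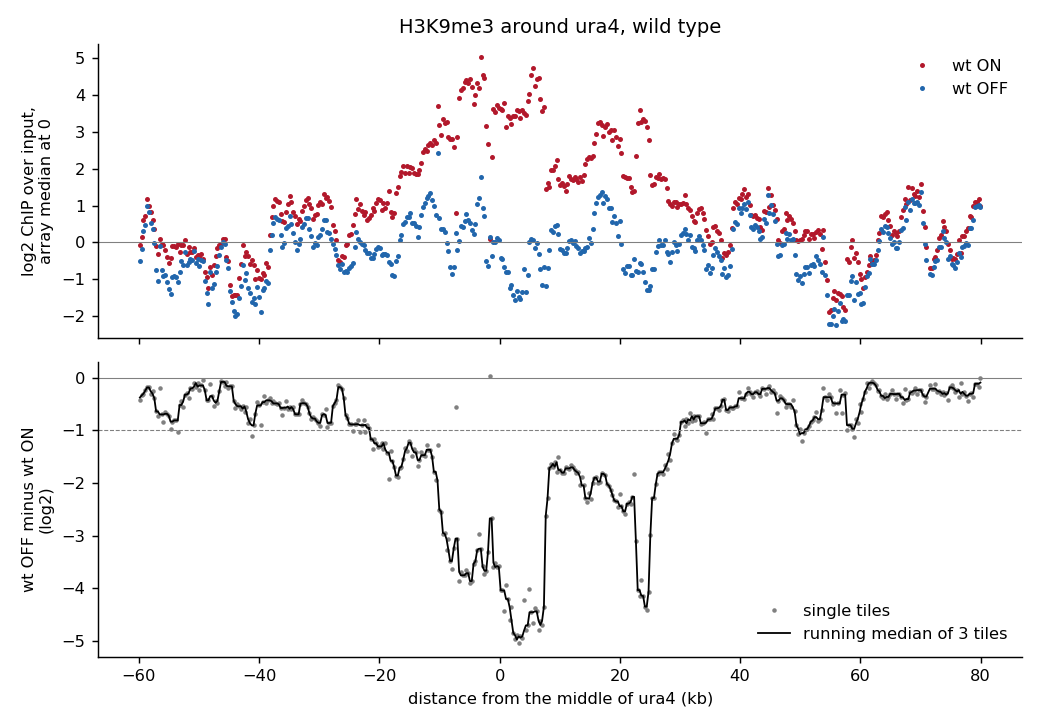
H3K9me3 around ura4 in wild-type cells. The upper panel plots each tile's log2 ChIP over input, with the array median at 0, for wt ON (red) and wt OFF (blue) against distance from the middle of ura4 in kb; the lower panel plots wt OFF minus wt ON for single tiles (grey) and as a running median of 3 tiles (black), with a dashed line at -1. The fall is deepest from 0 to 5 kb to the right, where the median is -4.61, steps to about -1.7 near 8 kb and deepens again near 24 kb at sry1.

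The fall had an uneven profile with sharp steps. From 0 to 5 kb right of the middle of ura4 the median difference over tiles was -4.61, and from 5 to 10 kb it was -3.49. Between 7.373 and 8.273 kb it went from -4.35 to -1.72 over 4 neighbouring tiles, and over the same tiles the wt ON level went from 3.68 to 1.51. A second deep block lay at sry1 from 22.973 to 24.773 kb, where single tiles fell by 3.85 to 4.41, between neighbours at -1.84 and -2.29. To the left the medians were -3.54 from -5 to 0 kb, -3.38 from -10 to -5 kb, -1.47 from -15 to -10 kb, -1.42 from -20 to -15 kb and -0.99 from -25 to -20 kb. One tile in the core, at -1.627 kb from the middle of ura4 and named as repeated on the array, read 0.10 in ON and 0.14 in OFF and was the 1 core tile that was not lower.

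Smaller falls went on beyond the domain. The run of tiles at -1 or lower reached from array position 94500 to 145800, 51.6 kb. From 40 to 60 kb left of ura4 the median was -0.43, and from 60 to 80 kb it was -0.23 with 95.5% of 67 tiles below 0. On the right it was -0.48 from 40 to 60 kb and -0.27 from 60 to 80 kb, and all tiles of both bins were below 0. Between 80 and 120 kb to the right the medians were -0.11 and -0.12. From 120 to 140 kb it was 0.01, and beyond 200 kb on chromosome III the 6741 arm tiles had a median of 0.07, with 34.9% below 0. In clr3-CDx2 the bins from 40 to 60 kb had medians of 0.33 on the left and 0.17 on the right. Neighbouring tiles share fragments of about 1000 bp and are not independent.

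Of 4953 protein-coding genes with at least 2 tiles, 27 (0.545%) were lower by at least 1 while reaching 1 on an array, and 9 (0.182%) were higher. Without the requirement for enrichment the counts were 35 (0.707%) and 28 (0.565%). The ectopic core holds 10 measured genes and the right flank 11, and 20 of the 27 lower genes are among them. These genes were chosen by a domain found on ON arrays, so their count is given beside the background and nothing is read from it. Of all 27, 5 were also at -1 or lower in clr3-CDx2, and 6 were at 1 or higher there; over all measured genes these shares in clr3-CDx2 were 0.323% and 1.53%.

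The ura4 gene (chrIII:115589-116625, minus strand) encodes orotidine 5′-phosphate decarboxylase, the enzyme of uracil synthesis against which 5-fluoroorotic acid selects. In wt ON its 4 tiles stood at 3.73, 3.64, 3.63 and 3.59, and in wt OFF at 0.13, 0.06, -0.41 and -0.45. No OFF tile came near the lowest ON tile, though these neighbouring tiles share fragments and are not replicates. The gene's difference was -3.81, a ratio 14.0 times lower. In clr3-CDx2 the same gene differed by 1.08.

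The deepest gene, pmp20, encodes a thioredoxin-related chaperone (peroxiredoxin family) and lies to the right of ura4. In wt ON its 3 tiles stood at 3.42, 3.41 and 3.59 and in wt OFF at -1.43, -1.56 and -1.31, so it ended well below the array median. The difference was -4.85, a ratio 28.8 times lower. The transporter gene SPCC330.07c followed with 4.43 in ON and -0.01 in OFF, a difference of -4.44.

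Left of ura4, the largest falls were at mug135 (4.32 to 1.04, difference -3.28), the cytochrome b5 reductase gene SPCC330.03c (4.19 to 0.45, -3.74) and the uncharacterized SPCC330.19c (2.80 to -0.76, -3.56). The DNA repair gene rhp7 went from 3.24 to 0.37, a difference of -2.87. The helicase gene rhp16 (2.64 to 0.96) and alg11 (1.67 to 0.01), a mannosyltransferase of N-glycan assembly, moved less, by -1.68 and -1.65.

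In the right flank sry1, the serine racemase gene, stood apart. Along the gene from left to right the wt ON tiles were 3.24, 3.60, 3.28, 3.34 and 3.29, the wt OFF tiles -0.80, -0.54, -0.58, -0.81 and -1.06, a gene difference of -4.09. It also fell in clr3-CDx2, by 2.35. The other 10 flank genes differed by -0.82 to -2.45: sdh3, of succinate dehydrogenase, by -2.45, rpc37, of RNA polymerase III, by -2.40, pcm1, the mRNA cap methyltransferase, by -2.29, rpl2402, a ribosomal protein, by -2.05 and btb1, a ubiquitin ligase adaptor, by -2.02. Then came ark1, the Aurora B kinase (-1.83), the peptidase gene atp23 (-1.80), the rRNA processing genes enp2 (-1.73) and nip7 (-1.23), and srp72 (-0.82), of the signal recognition particle, which did not reach -1. At the left edge of the domain meu23 was lower too (-1.87), as were qcr2 (-1.40), of the respiratory chain, and sen54 (-1.25), of tRNA splicing, just beyond it.

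The gene ade6 (chrIII:1316281-1318035, plus strand) encodes phosphoribosylaminoimidazole carboxylase of adenine synthesis. Its tiles lost H3K9me3 as a separate block. The annotated gene lies more than 1 Mb from ura4, on the other arm of chromosome III. Where in the genome the DNA read by these tiles lay was not tested. The 6 tiles of the gene had levels of 3.12, 3.55, 3.95, 3.73, 3.44 and 3.96 in wt ON, against 0.24, 0.63, 0.80, 0.69, 0.46 and 0.58 in wt OFF. The levels do not overlap, though these neighbouring tiles share fragments and are not replicates. The gene's difference was -3.04, a ratio 8.21 times lower. In clr3-CDx2 the gene read 2.36 in ON and 4.16 in OFF, a difference of 1.80 in the other direction, which was not tested.

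The edges at ade6 were sharp. The block covered 7 tiles, 2.1 kb, and the next tile to the right, 300 bp on, read -0.65 in wt ON and -0.38 in wt OFF. On the left the neighbouring tile read 1.02 in ON and 0.30 in OFF, a difference of -0.72, and the one before it differed by -0.09. A tile reads its sequence wherever it lies in the genome, and the labels do not say whether these strains carry further copies of ade6 or ura4.

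**Figure D2:**
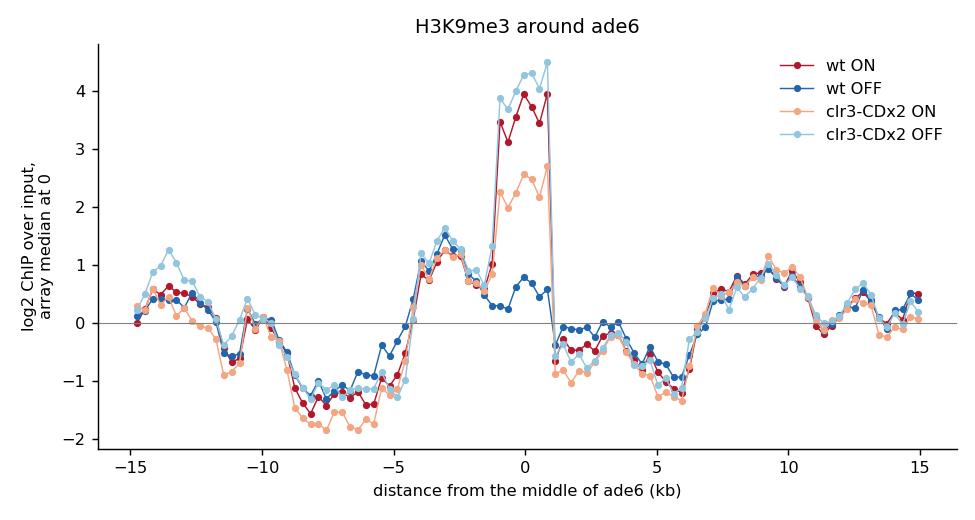
H3K9me3 around ade6 on all 4 arrays, as log2 ChIP over input per tile with the array median at 0, against distance from the middle of ade6 in kb. The 6 tiles of the gene read 3.12 to 3.96 in wt ON and 0.24 to 0.80 in wt OFF, while in clr3-CDx2 the OFF array is the higher one; tiles from 1.147 to 6.247 kb lie at 0.03 or lower on all arrays.

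At the ectopic domain and at ade6 part of the fall lay in the input channel. At ura4 the ChIP signal alone was lower by -2.06 (log2) while the input signal was higher by 1.77, and at ade6 the values were -1.64 and 1.43. At pmp20 they were -3.85 and 1.01. Over the core the input signal, with its array median at 0, had a median of -1.37 in wt ON and -0.35 in wt OFF, and the ChIP signal 1.80 and -0.07. Over the core the ChIP channel alone differed by -2.11 and the input alone by 0.76, and over the 27 lower genes the medians were -1.42 and 0.57. In clr3-CDx2 the core input read -0.99 in ON and -1.12 in OFF. The pericentromeric input read -1.39 in wt ON and -1.66 in wt OFF, the direction opposite to that at the core. The part of the input channel in the falls was not tested beyond these values. At the thiamine genes nmt1 and thi2 the change lay in the ChIP channel: nmt1 differed by 2.45 in ChIP and -0.09 in input, and thi2 by 2.82 and 0.12. At bsu1 the values were 2.40 and -0.39.

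**Figure D3:**
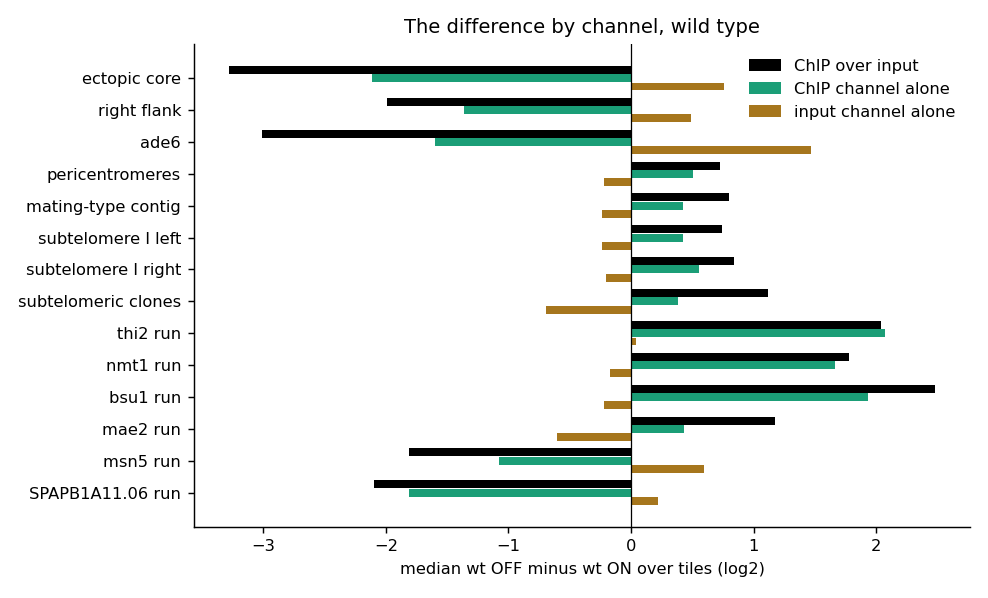
The wt OFF minus wt ON difference (log2, median over tiles) for 8 regions and 6 runs of changed tiles, as the ChIP over input ratio (black), the ChIP channel alone (green) and the input channel alone (brown). At ade6 the input bar, 1.46, is nearly as long as the ChIP bar, -1.60, and at thi2 the input bar is near 0.

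Along the chromosome arms 14 further runs of at least 5 tiles were lower by 1 or more, and 20 were higher, outside the ectopic domain, pericentromeres, subtelomeres and mating-type regions. The lower runs were 1.5 to 4.2 kb long and went from a median level of 0.70 in wt ON to -0.69 in wt OFF. Of these 14, 9 were also at -1 or lower in clr3-CDx2, where 0.722% of single arm tiles outside the domain were. The clearest besides ade6 was a run of 8 tiles over SPAPB1A11.06, an uncharacterized gene with too few tiles of its own, which went from 0.47 to -1.71, a difference of -2.10 against -3.39 in clr3-CDx2. The run at msn5, a nuclear transport receptor gene (karyopherin), was the longest, 4.2 kb, and went from 2.35 to 0.66, a difference of -1.81 against -1.60. The run at coq6, a monooxygenase of ubiquinone synthesis, went from 1.49 to -0.21, a difference of -1.77 against -2.06.

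Further lower runs with a like fall in clr3-CDx2 lay at rsc58, of the RSC remodelling complex (-1.61), SPCC191.05c (-1.45), exg1, a cell wall glucosidase (-1.44), SPAP32A8.02 with the ubiquitin ligase gene bop1 (-1.34) and dna2, a replication nuclease and helicase (-1.25). The run at pmd1, a drug exporter gene, differed by -1.12 and by -1.65 in clr3-CDx2. Lower in wild type without such a fall in clr3-CDx2 were the runs at fet4, an iron and zinc transporter (-1.40 against 0.15), ght1, a glucose transporter (-1.19 against 0.22), and str1, a siderophore iron transporter (-1.12 against -0.08). The ser2 and pof9 run differed by -1.06 and -0.75. These contrasts between genotypes were not tested.

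**Figure D4:**
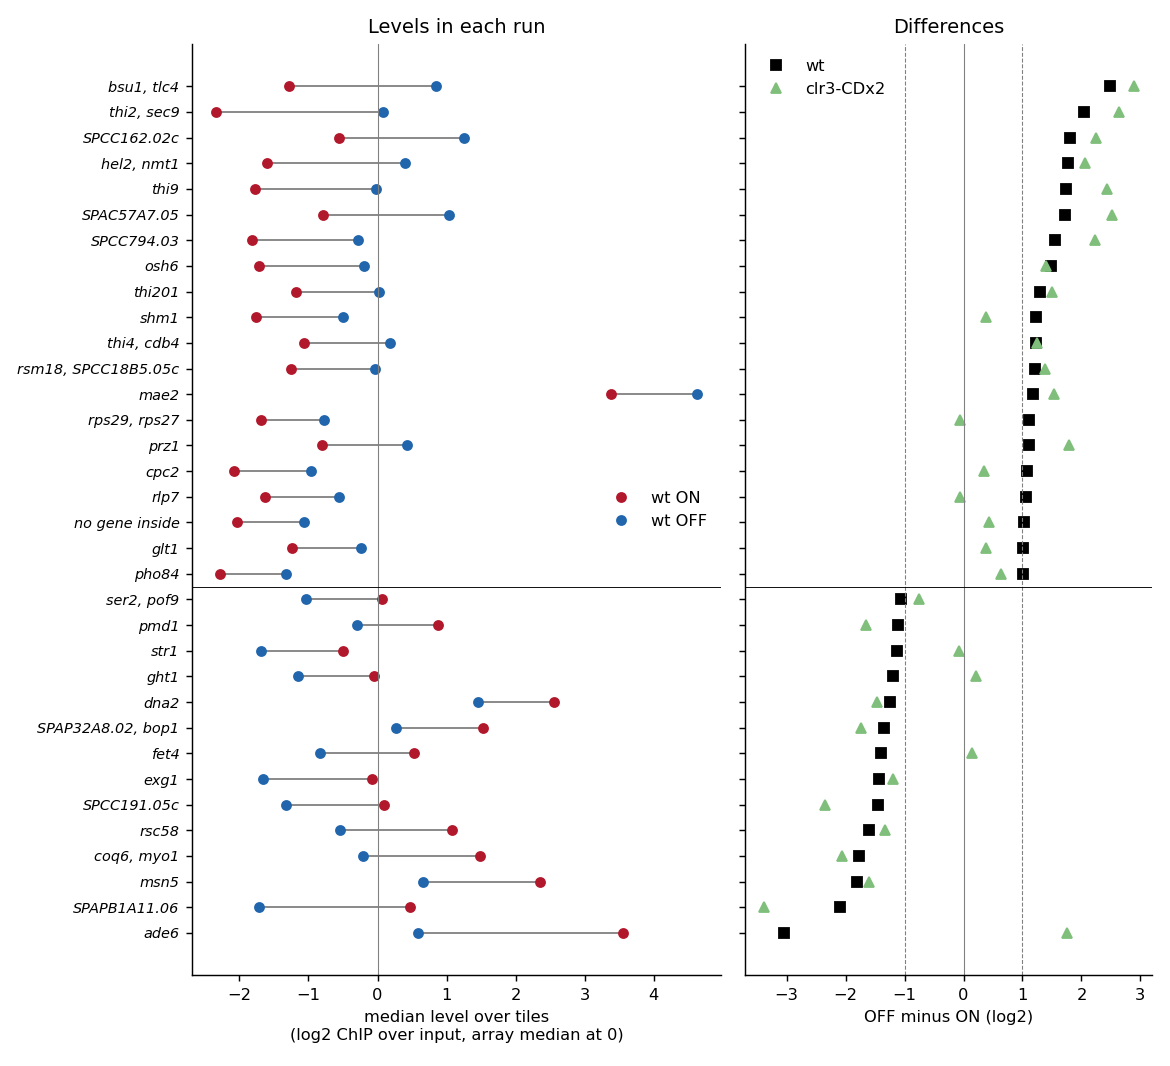
The 34 runs of changed tiles on chromosome arms, named by up to 3 genes they overlap. Left, the median level over the run's tiles (log2 ChIP over input, array median at 0) in wt ON (red) and wt OFF (blue); right, OFF minus ON (log2) in wild type (squares) and clr3-CDx2 (triangles), with dashed lines at -1 and 1. Of the 20 higher runs 19 start below 0 in wt ON; the exception, mae2, goes from 3.38 to 4.63.

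The 20 higher arm runs mostly began depleted. In 19 of them the wt ON level was below 0, and their medians were -1.61 in wt ON and -0.03 in wt OFF, so the rise brought them to about the array median rather than to enrichment. Only 3 reached 1 in wt OFF: mae2, SPAC57A7.05 and SPCC162.02c. Of the 20, 13 were also at 1 or more in clr3-CDx2, where 1.40% of single arm tiles outside the domain were. Depleted tiles as a class also moved up a little: arm tiles between -2 and -1 by their level on the clr3-CDx2 arrays had a median difference of 0.23 in wild type, those at -2 or below 0.37, and those between 0 and 1 -0.02. The upward shift was not particular to depleted tiles. The 37 arm tiles between 3 and 4 had a median of 0.83, with 10 at 1 or higher and 6 at -1 or lower. The 21 at 4 or above had a median of 1.03.

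The thiamine genes were prominent among them. Of 9 listed thiamine genes, all measured, 6 were higher by at least 1, against 0.565% of all measured genes. The list's median went from -1.27 in wt ON to 0.14 in wt OFF, with a median difference of 1.20 against 0.01 over all genes. In clr3-CDx2 the list's median difference was 1.27, and 6 of 9 were again at 1 or more. The list was drawn up with earlier results of these data known.

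The thiazole synthesis gene thi2 (chrII:3940526-3941699, plus strand) had the largest rise of any gene. Before the switch its 4 tiles were at -2.75, -2.30, -2.54 and -1.80, and after it at 0.31, 0.42, 0.22 and -0.14, a gene difference of 2.68. The thiamine synthesis gene nmt1 (chrIII:1838415-1839664, plus strand) had tiles at -2.53, -2.25, -2.13 and -2.21 in wt ON. In wt OFF they were at 0.21, 0.40, 0.06 and -0.38, a gene difference of 2.37. In both genes each OFF tile lay above each ON tile, though neighbouring tiles share fragments and are not replicates. Both thi2 and nmt1 hold ATATATAAA in the sequences above, while bsu1, with a difference of 2.53, holds neither it nor TATAAA. A link between these letters and the rises was not tested.

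The vitamin B6 importer gene bsu1 (chrI:3550034-3552067, plus strand) differed by 2.53. Its 7 tiles ran from -2.19 to -1.04, with a median of -1.27, in wt ON and from 0.81 to 1.41, with a median of 1.26, in wt OFF, so it crossed into enrichment. The thiamine transporter gene thi9 differed by 1.76, thi4, an enzyme that joins the precursors of thiamine, by 1.20, and pho4, a thiamine-repressible acid phosphatase, only just reached 1 (-1.32 to -0.32). The transcription factor genes thi5 (0.58) and thi1 (0.07) and the pyrophosphokinase gene tnr3 (0.13) did not reach 1.

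Further genes that the annotation ties to thiamine stood among the higher runs. They were the transporter SPCC794.03 (gene difference 1.54) and the kinases thi201 (1.17) and SPCC18B5.05c (1.21), and they were picked out after their values were seen. Of the 10 genes that the annotation ties to thiamine, some of them on the list above, 7 were at 1 or more; tnr3 (0.13), thi20 (0.27) and SPBC1604.04 (0.02) were not. The nmt1 run covered 5.1 kb and reached into hel2, a ubiquitin ligase gene, which differed by 1.38.

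**Figure D5:**
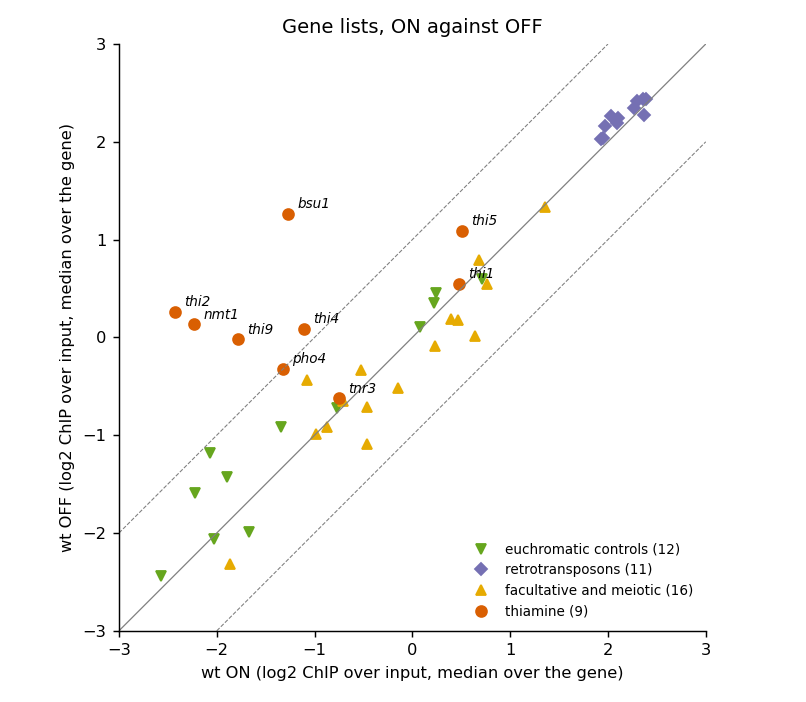
Median level over each gene (log2 ChIP over input, array median at 0) in wt ON (horizontal) and wt OFF (vertical) for the genes of 4 lists, with the number measured in brackets. The solid line marks equal levels and the dashed lines a difference of 1; 6 of 9 thiamine genes lie at or above the upper dashed line.

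The higher runs without a thiamine annotation included SPAC57A7.05 (run difference 1.72) and the AMP-binding dehydrogenase gene SPCC162.02c (1.81), which went from -0.55 to 1.25. Others lay at osh6, an oxysterol-binding protein gene (1.48), prz1, the calcineurin-responsive transcription factor gene (1.11), and mae2, a gene of malate metabolism (1.17). The mae2 run was the only higher arm run already enriched in wt ON, and it differed by 0.44 in the ChIP channel alone and by 0.11 with arrays scaled to equal pericentromeres. Higher in wild type but below 1 in clr3-CDx2 were 7 runs. These were rlp7 (1.06 against -0.06), cpc2 (1.08 against 0.35), rps29 with rps27 (1.11 against -0.06), the serine hydroxymethyltransferase gene shm1 (1.23 against 0.38), the glutamate synthase gene glt1 (1.01 against 0.38), the phosphate transporter gene pho84 (1.01 against 0.64) and a run with no protein-coding gene on chromosome II (1.02 against 0.42). The difference between genotypes was not tested.

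Regions of constitutive heterochromatin moved the other way from the ectopic domain, at enriched and unenriched tiles alike. The 360 pericentromeric tiles, 286 of them repeated, went from a median of 3.56 in wt ON to 4.50 in wt OFF. Their median difference was 0.72, and 99.2% of them were higher. The pericentromeres, mating-type contig and subtelomeres of chromosome I were also split by level on the clr3-CDx2 arrays. Tiles at -2 or below had a median wild-type difference of 0.64, those between 0 and 1 0.60, and those at 4 or above 0.81. Of the 360 pericentromeric tiles 26.4% carried a spot marked non-uniform or as a population outlier on a wild-type array. Without those, the pericentromeric medians were 1.13 and 2.13 and the difference 0.73. By centromere the median differences were 0.68 (I), 0.76 (II) and 0.73 (III). In clr3-CDx2 all 3 pericentromeres were higher in OFF as well, by 1.33, 1.47 and 1.41.

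The 110 tiles of the mating-type contig went from 3.07 to 4.29, a median difference of 0.80. The mating-type factor gene mat1-Mc went from 3.70 to 4.80 and mat3-Mc from 3.75 to 4.69. Their ChIP channel alone differed by 0.31 and 0.43, and their input by -0.77 and -0.49. These cassettes share sequence, so their tiles cannot be assigned to one of them. Higher runs also lay in the mating-type interval of chromosome II, one over SPBC23G7.14 and rpp202 (difference 1.21) and one beside it (1.20). Subtelomeres of chromosome I differed by 0.74 on the left (1.52 to 2.32) and 0.84 on the right (0.94 to 1.80). On chromosome II the left subtelomere differed by 0.46 and the right by 0.74. Tiles of 9 subtelomeric clones differed by 1.12 (2.63 to 3.95), and tlh1, the telomere-linked helicase gene, went from 4.87 to 5.62. Most of both rises lay in the input channel: the ChIP channel alone differed by 0.38 at the clones and 0.26 at tlh1, and the input by -0.69 and -0.47. Of the clone tiles 17.8% were lower. Subtelomeric genes counted as higher were SPAC212.08c (1.92), SPAC750.07c (1.71), the malic enzyme gene SPAC750.08c (1.15) and SPBCPT2R1.01c (1.03). Each rests on 2 or 3 tiles. In that order, the ChIP channel alone differed by 0.77, 0.76, 0.32 and 0.48, so none reached 1. The input differed by -1.14, -0.94, -0.72 and -0.30. The outer 25 kb of chromosome III did not share the rise: they differed by -0.69 at the left and -0.18 at the right end.

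These rises depend on the scale. When each array was scaled so that the pericentromeres had equal medians, the pericentromeric difference was -0.06, near 0 by construction, the mating-type contig was at 0.14 and the subtelomeres of chromosome I at 0.24 and 0.49. On that scale the ectopic core was at -3.78 and ade6 at -3.54.

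The median differences of the remaining lists stayed within 0.5 of 0. Heterochromatin factors had a median difference of 0.01 over 21 genes; the deacetylase gene clr6 was at -0.29 and clr2, which encodes a partner of Clr3, at 0.21. Tf2 retrotransposons were enriched on both arrays, with medians of 2.10 in wt ON and 2.26 in wt OFF, and differed by 0.10 over 11 measured copies, whose tiles share sequence. Among 16 measured meiotic genes and facultative heterochromatin genes the median was -0.21, against 0.01 over all genes. Of these, 4 were above 0 and none passed 1. The genes mcp7 and num1 (both -0.62) and ste11 (0.64), the master regulator of sexual differentiation, moved by 0.5 or more. Of all measured genes 4.83% were at 0.5 or higher and 1.86% at -0.5 or lower. The median over 12 genes of the euchromatic list was 0.13, with tef103, of translation elongation (0.89), and the enolase gene eno101 (0.64) past 0.5. Apart from ura4, the uracil list held ura1 at 0.73, and apart from ade6 no adenine gene passed 0.44. In the malate list the transporter gene mae1 differed by 0.44.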

How the data were processed

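The Cy5 channel held DNA precipitated with the H3K9me3 antibody and the Cy3 channel input DNA from whole-cell extract; those of each sample were hybridised to 1 two-colour Agilent tiling array, after precipitation with 2 µg of antibody from fragments of about 1000 bp, per the labels' protocols. By the positions in their names, neighbouring tiles lie mostly 300 bp apart. Spot intensity and dye-normalised processed signals were made by the authors with Feature Extraction 12.0.3.1 and a linear dye normalisation, per the file headers. The deposited series matrix holds log2 ratios, and no tile differed from the log2 ratio of the deposited processed signals by over 0.01. The 4 arrays share 1 slide and 1 scan. The log10 ratios that the deposited files also hold were made by the same software, per the file headers, and were not needed. The number of arrays limits the precision. Replicate cultures were not analysed here.

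From these, log2 of processed ChIP over input signal, less the array median, was computed for each non-control tile. Spots marked non-uniform or as population outliers in either channel (261 in wt ON, 190 in wt OFF) were kept, because the comparison covers all tiles. Leaving them out is an alternative. The headers name no genome build. Tiles were put on ASM294v3 by matching input signal to GC content per chromosome arm, with offsets of -1650 to 4500 bp; tile positions are those of the array and gene positions those of ASM294v3. Repeated tiles numbered 1403. Genes with at least 2 tiles take their median. Runs are at least 5 tiles past 1 in a smoothed profile (running median over 3 tiles), bridging gaps of 1 tile. The core is the overlap of the longest enriched runs on both ON arrays, pericentromeres are the longest gene-free intervals, and subtelomeres are the outer 50 kb. Named genes are those counted as higher or lower (up to 15 each way), all genes of the core and flank, up to 3 per run, and list members that moved by at least 0.5 or the 3 that moved most. Members and lists were chosen with earlier results of these data known. The normexp alternative (limma 3.58.1, R 4.3.3, offset 50) used median spot and background signals, since the files hold no mean signal. The run and gene rules were tested on simulated data with independent noise in each tile. In these data the differences of neighbouring arm tiles had a Pearson correlation of 0.81. The simulation therefore cannot show how often the run rule calls runs from such correlated noise. Other computations used Python 3.11.15. The values of 1 gene of the core are not reported here.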

Additional observations from a re-analysis of the deposited data

Results flagged for a closer look

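At the ectopic core the medians of the OFF minus ON difference had opposite signs in the genotypes, -3.28 in wild type and 0.93 in clr3-CDx2. The same held at ade6, with -3.01 over the gene's tiles in wild type and 1.77 in clr3-CDx2, and for the run of 7 tiles there, with -3.04 and 1.75. The difference between the genotypes was not tested, since each group had 1 array. The rule applied to each region and run was a wild-type difference past 1 and a clr3-CDx2 difference past 0.5 with the opposite sign. No outlier test applies to groups of 1 array.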

How the results depend on the processing

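Each of 13 regional differences and counts was recomputed under the alternatives that apply to it. A difference was taken as moved when it shifted by more than 0.19, the robust SD of the difference over arm tiles, since there are no replicates, and a count when it changed by over 1.5 times; 68 values did not move. With the ChIP channel alone the core was at -2.11, the right flank at -1.36, ade6 at -1.60, pericentromeres at 0.50, the mating-type contig at 0.43 and the subtelomeres of chromosome I at 0.42 (left) and 0.56 (right), with 3 genes and 214 tiles higher. With the input channel alone signs reversed: core 0.76, flank 0.49, ade6 1.46, pericentromeres -0.22, mating-type contig -0.24, subtelomeres -0.24 and -0.20, with 0 genes higher or lower and 48 tiles higher and 41 lower. Under scaling to equal pericentromeres the core was at -3.78, the flank at -2.35, ade6 at -3.54, pericentromeres at -0.058 (reversed), the mating-type contig at 0.14 and the subtelomeres at 0.24 and 0.49, with 4 genes and 831 tiles higher. With normexp the flank was at -2.22 and pericentromeres at 0.45, with 24 genes and 824 tiles higher. Centring on the mode gave 17 higher genes. Without repeated tiles the left subtelomere of chromosome I was at 1.44, with 5 genes and 309 tiles higher. At least 3 tiles per gene gave 5 higher genes, and no enrichment requirement 28. A change of 1.5 left 4 genes higher, 189 tiles lower and 110 higher, and 6 runs lower and 9 higher. Runs of at least 10 tiles numbered 4 lower and 13 higher. Over the extent in wt ON alone the domain was at -2.29. The other settings (marked spots left out, uncentred ratios, loess on input, no running median, the domain on clr3-CDx2 ON alone) moved no value. In each setting but the input channel alone, the core, flank and ade6 stayed lower. All 20 higher and 14 lower arm runs kept their direction under mode centring, ChIP alone, loess, normexp and pericentromere scaling. Fewer stayed past 1: with ChIP alone 15 higher and 11 lower, with normexp and with loess 17 higher each, with pericentromere scaling 19 higher and 13 lower, and with mode centring 13 lower. No paired analysis was possible because each group has 1 array.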
